A study of Mus musculus with 8 samples.

Results

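The transcriptome of the midbrain dopaminergic (mdDA) domain was set against that of a lateral midbrain domain of the same mouse embryos at E12.5. The comparison rested on 4 of the 8 arrays of the series, the 2 arrays labelled as mdDA domain from the ventral midbrain and the 2 labelled as control region from the lateral midbrain. All 4 came from BAT-gal embryos of the mixed strain B6D2F1, of undetermined sex, which carry a b-galactosidase (b-GAL) reporter driven by LEF1/TCF binding sites and so mark cells that respond to WNT/b-catenin. Sections were immunostained for PITX3 and b-GAL, the ventral fragment positive for both and a fragment at the alar-basal boundary negative for both were cut out by laser, and fragments of 5 embryos were used. The 2 arrays of a domain are technical replicates of pooled tissue, so every p-value given here measures technical spread and not the spread between embryos. The other 4 arrays hold mdDA neurons sorted for GFP from Pitx3GFP/+ embryos of the mixed strain C57BL/6 x 129/Ola at E13.5 and E14.5, again as 2 technical replicates each, and their levels are given without a test. Genotype, strain, stage and isolation all differ between the sorted neurons and the domains and cannot be told apart. Of 19938 genes with a probe set of exactly 1 gene symbol, the 19864 that the study did not draw in its panels of mdDA, WNT and downstream genes are described.

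The mdDA domain lies in the floor plate of the midbrain, the ventral midline strip of the neural tube. Its radial progenitors line the ventricle, and the neurons born from them pass through an intermediate zone into the mantle, where they begin to make dopamine. Farther lateral, the basal plate gives rise to motor and red nucleus neurons and the alar plate to the neurons of the tectum, many of them GABAergic or glutamatergic, and each of these territories is set up by its own transcription factors. In dissected tissue, fewer cells of a type and less RNA per cell cannot be told apart.

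Values are log2 levels after robust multi-array averaging (RMA), a difference is the mean of the mdDA arrays minus the mean of the lateral arrays on that log2 scale, errors are standard errors from limma with n = 2 arrays per domain, and a gene was called at an adjusted p below 10% over all 35556 probe sets. The labels were checked with 4 dopamine genes, all called higher. Th, the rate-limiting enzyme of dopamine synthesis, read 9.28 and 9.13 on the mdDA arrays and 5.57 and 5.11 on the lateral arrays, and Ddc, Nr4a2 and Slc18a2 were higher by 4.21, 3.71 and 3.15. The 4 arrays had medians between 4.57 and 4.60. The arrays of a domain correlated at 0.981 (mdDA) and 0.983 (lateral) over all probe sets, and the means of the 2 domains at 0.976.

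Outside the panels, 313 genes (1.58% of those tested) were higher and 207 (1.04%) lower in the mdDA domain. Of these, 51 (0.257% of those tested) were at least 4-fold higher and 40 (0.201%) at least 4-fold lower. The calls began at differences of 0.92 and -0.92, the median called rise was 1.37, and the median difference over all 19864 genes was -0.01. Arrays of the 2 domains did not overlap for many more genes, 22.4% with both mdDA arrays above both lateral arrays and 23.9% the other way. The calls depended on having both arrays of a domain. Without lateral replicate 1, 50 genes were called higher and 39 lower, and without lateral replicate 2 the counts were 65 and 41. Without mdDA replicate 1 or without mdDA replicate 2 they were 2 and 10, and the genes still called in both cases were C130021I20Rik and Slit2 among the rises and Tfap2b, Lhx2, Tfap2d, Tal2, Lhx9, Mab21l2, Dbx1, Tfap2a, Gata3 and Lmo1 among the falls. With 1 residual degree of freedom the standard error leans on the spread of all probe sets and can lie below the spread between the arrays of a domain.

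**Figure D1:**
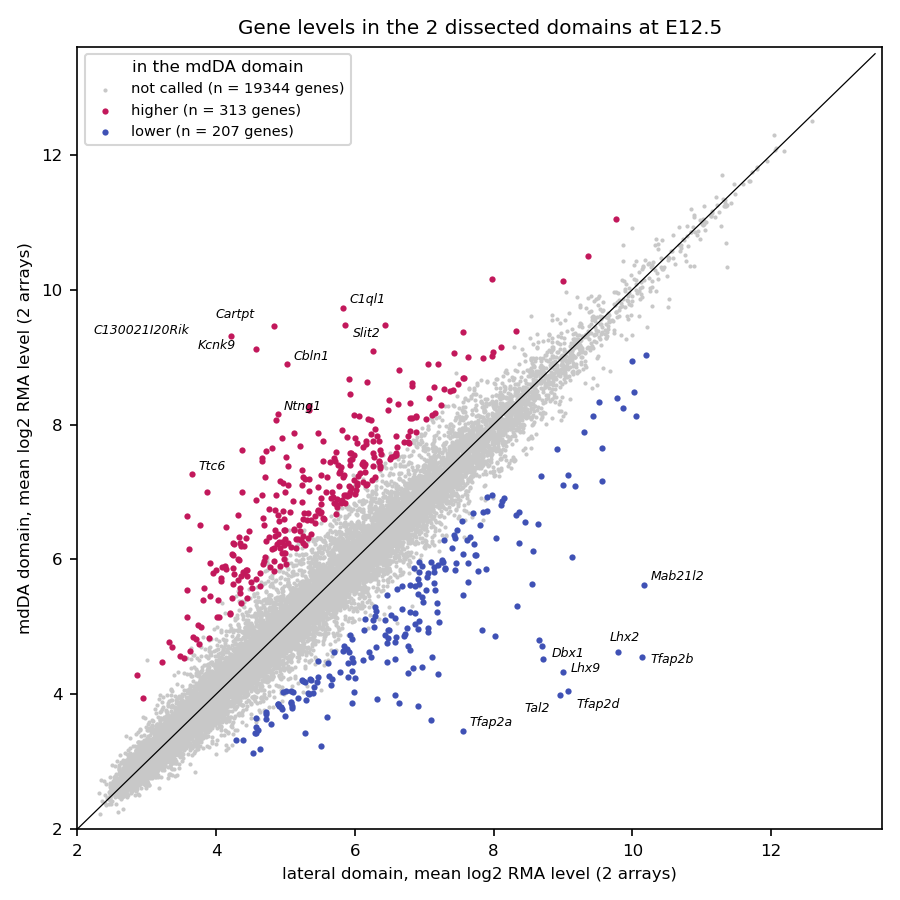
Mean log2 RMA level of each of 19864 genes in the lateral domain (x axis) and in the mdDA domain (y axis), each a mean of 2 arrays, with the 313 genes called higher in red, the 207 called lower in blue and the line of equal levels in black. The labelled genes are the 8 largest rises, above the line, and the 8 largest falls, below it, and the falls lie farther from the line at their extreme, at -5.58 for Tfap2b against 5.10 for C130021I20Rik.

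The largest rise belonged to a long non-coding RNA. C130021I20Rik read 9.35 and 9.28 on the mdDA arrays and 4.19 and 4.25 on the lateral arrays, a difference of 5.10 ± 0.15 (adjusted p = 0.0224, limma). The groups lay far apart, and the sorted neurons read 10.06 and 10.10 at E13.5 and 9.61 and 9.56 at E14.5. In the RefSeq annotation its nearest protein-coding neighbour on the preceding side is Lmx1b, a homeobox gene of the mdDA lineage. Its second probe set was also called, at a smaller difference of 2.24 (adjusted p = 0.0739). A second large rise next to a gene of the mdDA lineage was that of Ttc6, a tetratricopeptide repeat gene whose preceding protein-coding neighbour is the floor plate gene Foxa1. Ttc6 read 7.26 and 7.28 on the mdDA arrays and 3.87 and 3.44 on the lateral arrays, a difference of 3.61 ± 0.18 (adjusted p = 0.0241). Its mdDA arrays were nearly equal and its sorted neurons lay between the domains, from 6.04 to 6.46.

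C1ql1, which encodes a secreted C1q-domain protein, read 9.73 and 9.74 on the mdDA arrays and 6.20 and 5.47 on the lateral arrays (difference 3.90 ± 0.23). Cbln1, which bridges neurexins and delta glutamate receptors, read 8.82 and 8.97 on the mdDA arrays and 4.86 and 5.19 on the lateral arrays (difference 3.87 ± 0.15). Both stayed high in the sorted neurons, at 8.45 and 8.80 for C1ql1 and 9.67 and 9.41 for Cbln1 at E13.5. Their relatives were not called, with differences of 0.00 for C1ql2, 0.02 for C1ql3, -0.22 for C1ql4, 0.58 for Cbln2, 0.12 for Cbln3 and 1.00 for Cbln4. Tmem255a and Tmem130, genes of membrane proteins, rose by 3.25 and 2.93, and Marchf4, a membrane ubiquitin ligase, rose by 3.13. Shisa6, an auxiliary subunit of AMPA receptors, read 7.62 and 7.68 on the mdDA arrays and 4.94 and 4.66 on the lateral arrays, a difference of 2.85 ± 0.17 (adjusted p = 0.0301, limma). It was high at E13.5, at 8.65 and 8.62, and at the level of the mdDA domain at E14.5, at 7.69 and 7.65.

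Cartpt, the precursor of the CART peptides, and Postn, a secreted matrix protein, were high in the domain and low in the sorted neurons. Cartpt rose by 4.63 ± 0.33 and read 9.33 and 9.60 on the mdDA arrays, while the sorted neurons, from 4.70 to 5.14, lay among the lateral arrays at 5.32 and 4.35. Postn read 6.03 and 7.26 on the mdDA arrays and 3.85 and 3.31 on the lateral arrays, a difference of 3.07 ± 0.45 (adjusted p = 0.0881). Its mdDA arrays differed from each other by more than 1 log2 unit but stayed above the lateral arrays, and the sorted neurons read from 3.10 to 3.72.

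A microRNA gene rose with its host. Slit2, a secreted repellent of growing axons made by the floor plate, read 9.47 and 9.49 on the mdDA arrays and 5.88 and 5.84 on the lateral arrays, a difference of 3.62 ± 0.15 (adjusted p = 0.0224, limma). Of 300 microRNA genes measured, which include host genes such as Mir100hg and Mir17hg, Mir218-1 alone was called higher and 0 were called lower. Over all genes the shares were 1.58% and 1.04%, and many of the 300 lay below the array medians in both domains. At an unadjusted p below 0.05 (limma), 4 were lower, and Mir134, Mir146b, Mir153 and Mir181b-2 were among those higher. Mir218-1 lies within the Slit2 gene and read 6.17 and 6.45 on the mdDA arrays and 4.40 and 4.47 on the lateral arrays, a difference of 1.88 ± 0.16 (adjusted p = 0.0445). The array probes measured the hairpin region in amplified cDNA, and signal from the mature miRNA and from the surrounding Slit2 transcript cannot be told apart. Mir218-2, within the Slit3 gene, read 3.24 and 3.25 on the mdDA arrays and 3.11 and 3.23 on the lateral arrays and was not called (difference 0.07), although Slit3 itself rose by 1.14 ± 0.15 (adjusted p = 0.072). The mature miR-218-5p that both hairpins give is shown because it is the product of the only hairpin called, from RefSeq (GRCm38.p6), with the seed, bases 2 to 8, in capitals, and the 3' products of the hairpins follow since they tell them apart.
mmu-miR-218-5p (chr5:48223966-48223986 and chr11:35616840-35616860, both strand +): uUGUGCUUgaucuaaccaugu
mmu-miR-218-1-3p (chr5:48224005-48224026, strand +): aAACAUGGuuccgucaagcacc
mmu-miR-218-2-3p (chr11:35616882-35616903, strand +): cAUGGUUCugucaagcaccgcg

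Transcription factor genes headed the falls. Tfap2b, an AP-2 factor of the tectum, read 4.37 and 4.75 on the mdDA arrays and 10.20 and 10.08 on the lateral arrays, a difference of -5.58 ± 0.19 (adjusted p = 0.0224, limma), and its relatives Tfap2d and Tfap2a fell too (differences -5.03 and -4.11). The LIM-homeobox gene Lhx2 read 4.21 and 5.05 on the mdDA arrays and 9.75 and 9.84 on the lateral arrays (difference -5.17 ± 0.23), and its relative Lhx9 read 4.31 and 4.35 on the mdDA arrays and 8.97 and 9.02 on the lateral arrays (difference -4.66 ± 0.15). Lmo1, a LIM-only cofactor, fell by 3.85, Mab21l2 fell by 4.54, and the homeobox gene Shox2 fell by 3.48. The sorted neurons read 6.13 and 6.16 for Lhx9 at E13.5 and 4.78 and 4.63 a day later, the last near the mdDA arrays. For Lhx2 they stayed between the mdDA and the lateral arrays at both stages, from 6.76 to 7.37. Gad2, an enzyme of GABA synthesis, stood apart, since the sorted neurons, from 7.56 to 7.97, lay near the lateral arrays at 8.45 and 8.23 while the mdDA arrays read 5.29 and 5.31. Gad1, the other such enzyme, read 4.65 and 3.94 on the mdDA arrays and 7.28 and 7.12 on the lateral arrays and 4.87 to 5.11 in the sorted neurons.

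**Figure D2:**
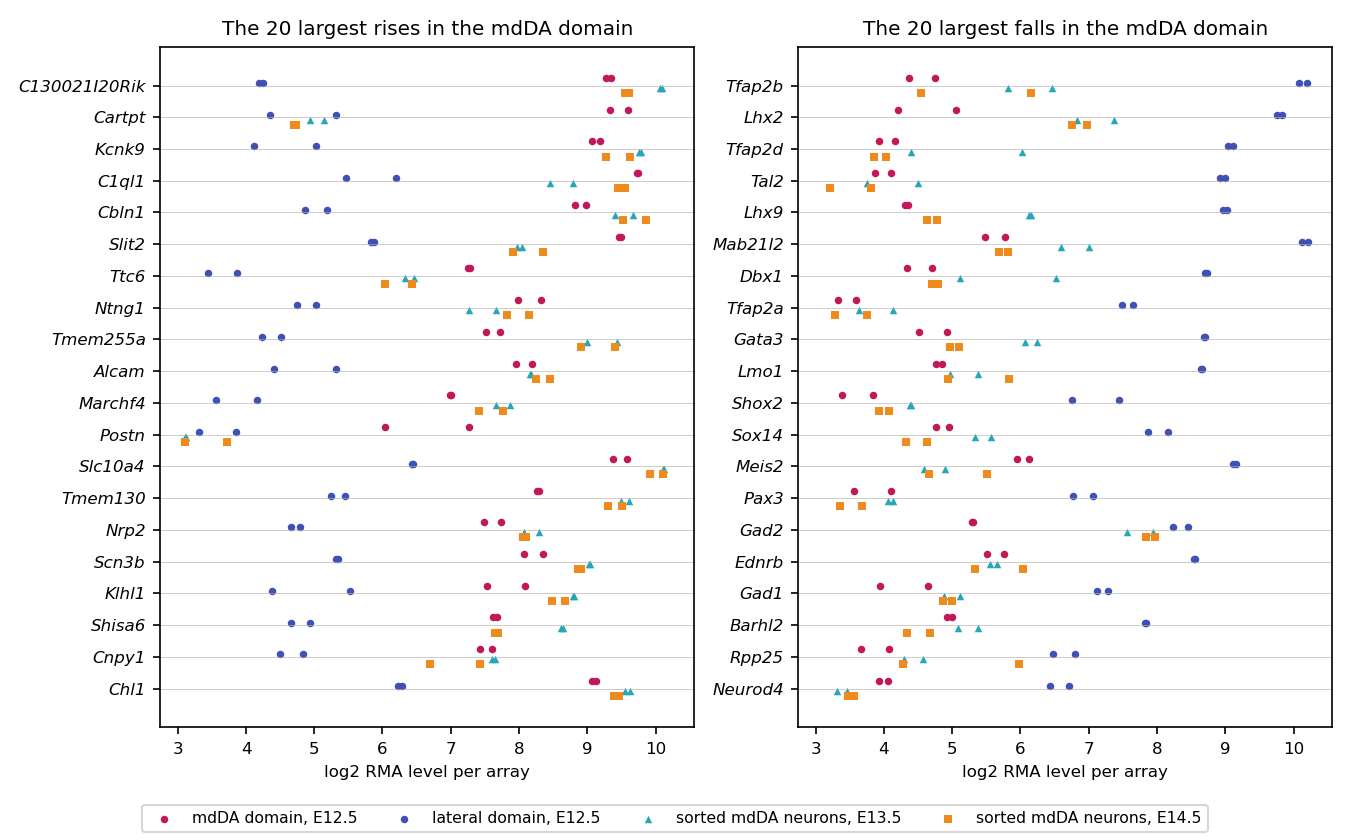
Log2 RMA level on each array (x axis) of the 20 largest rises (left) and the 20 largest falls (right) in the mdDA domain, with 2 points per gene for the mdDA domain (red circles), the lateral domain (blue circles) and sorted mdDA neurons at E13.5 (triangles) and E14.5 (squares). Genes whose domains overlap were not eligible, and the sorted neurons lie beside the lateral arrays for Cartpt and Postn on the left and close to them for Gad2 on the right.

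The promoters of the called genes were read for short core motifs of LEF1/TCF, FOXA and NR4A factors. A window from 250 bases before to 50 bases after the start site was available for 15514 of the 19864 genes, and where a gene had several windows the first was used. The LEF1/TCF core (matched on either strand as CTTTGAA or as CTTTGAT or else as CTTTGTA or lastly as CTTTGTT) was found in 34 of 237 promoters of genes called higher (14.35%), 23 of 166 of genes called lower (13.86%) and 2244 of all 15514 (14.46%). The FOXA core (matched likewise as TGTTTAC or as TGTTTGC) was found in 4.219%, 6.627% and 7.071% of the same promoters. The NR4A core (AAGGTCA) was found in 2.532%, 0.0% and 3.79% of them, and a promoter could hold several motifs. Within these windows the LEF1/TCF core was thus no more frequent in either direction than over all genes with a window. Sites farther from the start site were not read. Among the 20 largest rises, 15 had a window and 2 of these, Slc10a4 and Nrp2, held the LEF1/TCF core, and among the 20 largest falls, 19 had a window and 6 held it. Those 2 rises and the first 2 such falls, Lhx9 and Dbx1, are shown 5' to 3' on the gene's strand, from RefSeq (GRCm38.p6), with each match in capitals (TTCAAAG in Dbx1 is a core read on the other strand).
Slc10a4 (chr5:73006654-73006953, strand +): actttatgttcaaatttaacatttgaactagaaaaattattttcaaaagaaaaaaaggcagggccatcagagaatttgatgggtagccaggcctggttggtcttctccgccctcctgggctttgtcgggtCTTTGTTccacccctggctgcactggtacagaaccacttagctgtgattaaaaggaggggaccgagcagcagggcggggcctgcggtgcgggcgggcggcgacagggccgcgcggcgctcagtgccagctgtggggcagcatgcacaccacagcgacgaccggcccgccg
Nrp2 (chr1:62703067-62703366, strand +): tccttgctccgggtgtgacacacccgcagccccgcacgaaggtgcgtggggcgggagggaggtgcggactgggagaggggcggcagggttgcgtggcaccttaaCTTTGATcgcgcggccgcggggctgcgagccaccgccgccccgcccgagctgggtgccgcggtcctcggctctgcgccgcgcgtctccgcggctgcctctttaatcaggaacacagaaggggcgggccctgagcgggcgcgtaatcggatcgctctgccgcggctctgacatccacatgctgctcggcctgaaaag
Lhx9 (chr1:138842395-138842694, strand -): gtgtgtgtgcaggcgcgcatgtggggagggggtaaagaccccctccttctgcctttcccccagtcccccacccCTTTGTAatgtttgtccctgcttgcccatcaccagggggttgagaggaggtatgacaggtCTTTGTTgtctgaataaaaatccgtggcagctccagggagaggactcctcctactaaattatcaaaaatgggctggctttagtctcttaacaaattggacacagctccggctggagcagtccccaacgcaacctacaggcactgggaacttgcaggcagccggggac
Dbx1 (chr7:49636786-49637085, strand -): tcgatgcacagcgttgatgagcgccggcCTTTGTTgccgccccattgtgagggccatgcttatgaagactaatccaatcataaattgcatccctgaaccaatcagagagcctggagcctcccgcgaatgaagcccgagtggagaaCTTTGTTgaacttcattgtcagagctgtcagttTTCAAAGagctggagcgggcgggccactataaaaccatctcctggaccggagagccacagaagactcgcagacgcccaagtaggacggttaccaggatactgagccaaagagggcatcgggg
Counted from the start site, the match began at -120 in Slc10a4 and at -146 in Nrp2, while Lhx9 held 2 matches and Dbx1 held 3.

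Among the 39 gene groups, that of the floor plate had the largest share of rises. Of its 12 genes measured, 8 were higher and 0 lower, and their median difference was 1.34. Over all genes, 1.58% were higher and 1.04% lower, and the counts of the groups below stand beside the same shares. Members and lists were chosen with earlier results of these data known, so the order of the groups is not a test. Beside Slit2, the adhesion molecule Alcam, also found on young dopaminergic cells, read 7.95 and 8.19 on the mdDA arrays and 4.41 and 5.32 on the lateral arrays (difference 3.21 ± 0.22). Slit1 read 7.65 and 7.98 on the mdDA arrays and 5.91 and 5.85 on the lateral arrays (difference 1.93 ± 0.17), and Corin, a transmembrane serine protease used to sort floor plate cells, read 6.24 and 5.91 on the mdDA arrays and 4.28 and 4.17 on the lateral arrays (difference 1.85 ± 0.16). Corin was low in the sorted neurons, from 4.02 to 4.18 and so at the level of the lateral arrays, whereas Slit1 at 6.76 to 6.92 lay between the domains. The other called members were the spondin gene Spon1 (1.44), the homeobox gene Msx1 (1.39), the midline attractant Ntn1 (1.30) and Slit3.

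Among 20 further genes of mdDA neurons, 4 rose, 1 fell and 15 were not called, with a median difference of 0.26. Those not called included Aldh1a1, Drd2, Chrna6, Chrnb3, Sncg, Sox6, Calb1, Kcnj6 and Vip. Slc10a4, a transporter-like protein of synaptic vesicles in monoaminergic and cholinergic neurons, read 9.58 and 9.38 on the mdDA arrays and 6.44 and 6.44 on the lateral arrays, a difference of 3.04 ± 0.15 (adjusted p = 0.0241, limma). Gch1, which makes the cofactor of tyrosine hydroxylase, read 5.95 and 6.36 on the mdDA arrays and 3.76 and 3.47 on the lateral arrays (difference 2.54 ± 0.22, adjusted p = 0.0453). Its level was higher still in the sorted neurons, from 7.71 to 8.14. Klhl1, an actin-binding kelch protein, rose by 2.86 ± 0.43, with lateral arrays that differed from each other by more than 1 log2 unit (5.52 and 4.38). Gfra1, a receptor for GDNF, rose by 1.69 ± 0.15, and Otx2, a midbrain homeobox gene, fell by 1.62.

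Some genes of neighbouring ventral nuclei were called. Of 12 oculomotor and cholinergic genes, 3 were higher and 0 lower (1.58% and 1.04% over all genes), with a median difference of 0.51. The other 9, among them Phox2a, Chat, Slc18a3, Isl2 and Prph, were not called. Of the 12, 8 lay below the array medians in both domains. For 9 of the 12 both mdDA arrays lay above both lateral arrays and for 0 below, against 22.4% and 23.9% over all genes. Isl1, a LIM-homeobox gene of motor neurons, read 5.52 and 6.05 on the mdDA arrays and 4.00 and 4.52 on the lateral arrays (difference 1.52 ± 0.15, adjusted p = 0.0507, limma). Lhx4 rose by 1.17 ± 0.16, and the choline transporter Slc5a7 by 1.00 ± 0.15 (adjusted p = 0.0868), a call that was lost without the replicate block (adjusted p = 0.153). Of 10 red nucleus and basal plate genes, Sim1 read 5.90 and 5.90 on the mdDA arrays and 4.36 and 3.88 on the lateral arrays (difference 1.78), Nkx6-1 rose by 1.12 and Irx3 fell by 1.69. The other 7, among them Pou4f1, were not called. Isl1 and Sim1 did not overlap between the domains and were low in the sorted neurons, at 3.71 to 4.15 and 3.70 to 4.24. The part of cells from such nuclei in the domain's values was not tested. None of 10 serotonergic and hindbrain genes was called, also at an unadjusted p below 0.05 or without the block, and the levels of Hoxb1 and Hoxb3 differed by 0.03 and 0.05. Of these 10 genes, 7 lay below the array medians in both domains. Against 1.58% higher and 1.04% lower over all genes, a count of 0 does not set so short a list apart.

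Of 16 GABAergic genes measured, 0 rose, 9 fell and 7, among them Dlx1, Dlx2 and Tal1, were not called, and the median difference was -1.67. The factors among them were Tal2, Gata3, Sox14, Zfpm2, Helt and Gata2, which specify or accompany GABAergic neurons of the midbrain, and beside Gad1 and Gad2 the vesicular GABA transporter Slc32a1 fell by 1.34 ± 0.15. Sox14 read 4.76 and 4.95 on the mdDA arrays and 8.17 and 7.87 on the lateral arrays (difference -3.16 ± 0.19, adjusted p = 0.0301). Of 15 alar plate genes, 0 rose and 7 fell, among them Meis2, Pax7 and Otx1 (differences -3.09, -2.45 and -1.98). Of 12 genes of subthalamic and hypothalamic neurons, 4 fell, among them Barhl2 and Barhl1 (differences -2.87 and -1.60), and Sim2 rose by 1.00. Of 12 glutamatergic genes, 1 fell, the bHLH gene Neurod1 (difference -1.25 ± 0.16), and Ebf2 was not called (difference -0.40).

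The proneural genes split. Neurog2, which drives neurogenesis in the mdDA lineage, read 7.86 and 7.94 on the mdDA arrays and 6.83 and 6.77 on the lateral arrays, a rise of 1.10 ± 0.15 (adjusted p = 0.0759, limma). Its relative Neurog1 read 4.39 and 4.24 on the mdDA arrays and 6.39 and 7.13 on the lateral arrays, a difference of -2.45 ± 0.26 (adjusted p = 0.0609). Both genes were without overlap, in opposite directions. Neurod4, a later bHLH gene, fell by 2.58 and Id2, an inhibitor of bHLH factors, fell by 1.43. Of 14 proneural genes, 1 was thus called higher and 3 lower. The largest rise in the group was 1.32, in a gene that was not called. Without the replicate block 2 were called higher and 4 lower. Of 22 NOTCH pathway genes, 0 were called higher and 1 lower, the receptor gene Notch1 (difference -1.12). The neuronal ligand gene Dner missed the threshold (difference 0.84, adjusted p = 0.119, limma). The lowest difference in this group was -1.45, in a gene that was not called. For 12 of the 22 both mdDA arrays lay below both lateral arrays and for 5 above, against 23.9% and 22.4% over all genes. Without the replicate block 1 NOTCH gene was called higher and 2 lower.

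Of 34 cell division genes, 0 rose, 15 fell and 19 were not called, and the median difference was -1.05. For 32 of them both mdDA arrays lay below both lateral arrays. Over all genes, 1.04% fell and 23.9% had both mdDA arrays below both lateral arrays. Kif11, a mitotic kinesin, read 5.02 and 4.54 on the mdDA arrays and 6.60 and 6.57 on the lateral arrays (difference -1.81 ± 0.18), and Bub1, a spindle checkpoint kinase, read 4.27 and 4.85 on the mdDA arrays and 6.34 and 6.12 on the lateral arrays (difference -1.67 ± 0.24). In the sorted neurons both were lower still, at most 3.87 for Kif11 and 3.57 for Bub1. The count of called cell division genes was 1 without either lateral array and 0 without either mdDA array. The cyclin gene Ccnd2 was even between the domains at 9.22 and 9.31 on the mdDA arrays and 9.21 and 9.26 on the lateral arrays, and 6.05 to 7.14 in the sorted neurons. Of 18 radial glia and progenitor genes, 0 were called higher, 15 were not called and 3 were called lower. The 3 were Ednrb, the endothelin B receptor (-2.92), Nr2e1, an orphan nuclear receptor of neural stem cells (-2.40), and Sox9 (-1.71). The median difference of the 18 was -0.41. For 14 of them both mdDA arrays lay below both lateral arrays and for 1 above, against 23.9% and 22.4% over all genes.

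Of 29 pan-neuronal genes, 7 rose, 0 fell and 22 were not called, with a median difference of 0.44. Of 27 synaptic vesicle genes, 7 rose, 0 fell and 20 were not called, with a median of 0.62. Scg2 and Chgb, granins of dense-core vesicles, rose by 2.34 ± 0.15 and 1.79 ± 0.19. Scg2 read 6.67 and 6.65 on the mdDA arrays and 4.34 and 4.30 on the lateral arrays and was higher in the sorted neurons, from 8.20 to 8.89. The neurofilament gene Nefm went the other way among the neuronal samples, with 9.26 and 9.47 in the mdDA domain, levels from 7.76 to 8.22 in the sorted neurons and 7.41 and 7.70 in the lateral domain (difference 1.81 ± 0.15, adjusted p = 0.0445, limma). The vesicle calcium sensors Syt4 and Syt5 rose by 1.85 and 1.34, and Pclo, a scaffold of the active zone, by 1.65. The shares of neurons and progenitors in the fragments were not measured, and their part in the differences of single neuronal or progenitor genes was not tested.

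**Figure D3:**
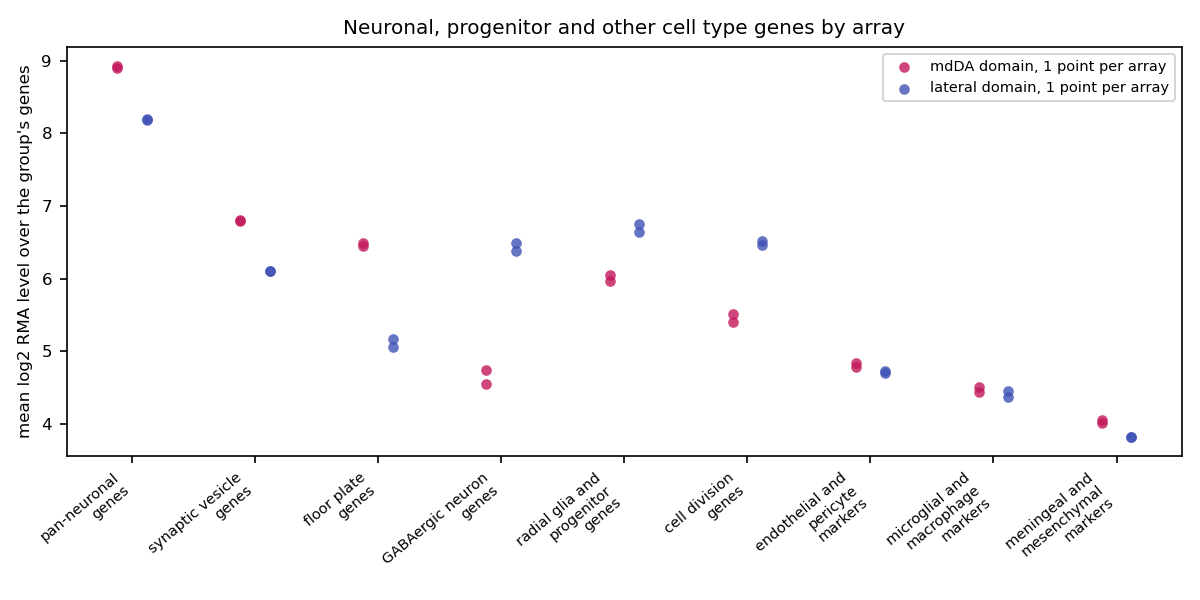
Mean log2 RMA level over the members of 9 gene groups (y axis), 1 point per array, for the mdDA domain (red) and the lateral domain (blue). Arrays of a domain lie close together, the means of the neuronal, synaptic and floor plate groups lie higher and those of the GABAergic, progenitor and cell division groups lower on the mdDA arrays, and of the 3 groups at the right the meningeal genes, which include Postn, differ most, at 4.02 to 4.06 against 3.82 to 3.83.

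Of 18 axon guidance genes of the Slit, Robo and netrin families, 9 rose and 1 fell, with a median difference of 0.74, and 4 of the rises (Slit1, Slit2, Slit3 and Ntn1) are those of the floor plate group. Ntng1, an axonal membrane-anchored netrin, read 7.98 and 8.33 on the mdDA arrays and 4.75 and 5.03 on the lateral arrays (difference 3.26 ± 0.15, adjusted p = 0.0224, limma), although its second probe set differed by only 0.47 and was not called. On the receptor side, Robo2 and Robo3 rose by 1.07 and 2.00 ± 0.31, the netrin receptor genes Unc5c and Unc5a rose by 1.71 and 0.99, and Unc5b fell by 1.19. Robo3 read 6.88 and 7.13 on the mdDA arrays and 5.45 and 4.55 on the lateral arrays, and from 4.07 to 5.22 in the sorted neurons. It did not overlap between the domains, and the sorted neurons lay within or below the lateral range.

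Of 31 semaphorin, plexin and neuropilin genes, 4 rose and 0 fell. Nrp2, a receptor for class 3 semaphorins, read 7.49 and 7.73 on the mdDA arrays and 4.65 and 4.80 on the lateral arrays (difference 2.89 ± 0.15, adjusted p = 0.0241). The sorted neurons were above the mdDA arrays, from 8.06 to 8.29. The receptors Plxna4 and Plxnc1 rose by 1.41 and 0.94, and the ligand Sema3c read 5.35 and 5.46 on the mdDA arrays and 3.99 and 4.07 on the lateral arrays (difference 1.37 ± 0.15) but only 3.73 to 4.02 in the sorted neurons. Of 21 Eph and ephrin genes, 2 rose and 3 fell. The receptors Ephb1 and Epha4 fell (differences -2.08 ± 0.15 and -2.04 ± 0.21), a second probe set of Ephb1 did so as well (difference -2.19), and Epha6 rose by 1.22. Of the ephrin ligands, Efna2 fell by 1.13 and Efnb2 rose by 1.10.

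Cell adhesion genes were called in both directions. Of 43 genes of the immunoglobulin and leucine-rich repeat families, 14 rose and 2 fell, with a median difference of 0.59. Chl1, a member of the L1 family, read 9.06 and 9.13 on the mdDA arrays and 6.23 and 6.29 on the lateral arrays (difference 2.84 ± 0.15), and L1cam itself rose by 1.51. Cntn2, a contactin of commissural and other early axons, read 7.16 and 7.16 on the mdDA arrays and 9.53 and 9.61 on the lateral arrays, a difference of -2.41 ± 0.15 (adjusted p = 0.0319, limma), while its relatives Cntn1 and Cntn4 rose by 1.57 and 1.32. Contactins thus went both ways. Negr1, Ncam2, Flrt2 and Lrrn3 rose by 2.10, 1.69, 1.63 and 1.69.

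Of 30 cadherin and protocadherin genes, 5 rose and 2 fell. Pcdh11x read 7.38 and 7.05 on the mdDA arrays and 4.76 and 4.65 on the lateral arrays (difference 2.51 ± 0.16, adjusted p = 0.0322, limma). Pcdh9 read 8.52 and 8.73 on the mdDA arrays and 6.14 and 6.22 on the lateral arrays (difference 2.44 ± 0.15), with a second probe set at 2.51. Both protocadherins were lower in the sorted neurons than on the lateral arrays, at 3.92 to 4.23 for Pcdh11x and 5.58 to 5.99 for Pcdh9. Cdh6 and Pcdh7 rose by 1.76 and 1.55, and Cdh8, a type II cadherin, read 5.51 and 5.18 on the mdDA arrays and 7.12 and 7.27 on the lateral arrays (difference -1.85 ± 0.19) and 6.42 to 7.17 in the sorted neurons.

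Of 47 potassium channel genes, 6 rose, of 27 sodium and calcium channel genes, 5, and of 35 ligand-gated receptor genes, 9. None of the 3 groups held a called fall, and the other 41, 22 and 26 genes were not called. Kcnk9, a potassium leak channel, rose most, by 4.55 ± 0.29 (adjusted p = 0.0332, limma), with lateral arrays that lay well apart (4.11 and 5.03). Kcnd3, a subunit of A-type potassium channels, read 8.81 and 8.82 on the mdDA arrays and 6.50 and 6.78 on the lateral arrays (difference 2.18 ± 0.16), and Kcnip1, a partner subunit of such channels, rose by 1.61. Kcnma1, the BK channel, rose by 1.82 on its main probe set, but a second probe set with levels near 3 differed by -0.22 and was not called. Scn3b, a sodium channel beta subunit, read 8.07 and 8.36 on the mdDA arrays and 5.32 and 5.35 on the lateral arrays (difference 2.88 ± 0.16). The pore subunit Scn9a rose by 1.97, with a second probe set at 0.83 that was not called, and the calcium channel genes Cacna1e and Cacna1b rose by 1.25 and 1.11.

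Among receptors, the AMPA subunit genes Gria3, Gria2 and Gria4 rose by 2.75, 1.53 and 1.22. Gria3 read 7.90 and 7.86 on the mdDA arrays and 5.38 and 4.88 on the lateral arrays (SE 0.18, adjusted p = 0.034, limma), and the sorted neurons were above the domain at 8.56 to 9.06. The kainate receptor genes Grik3 and Grik1 rose by 2.09 and 1.76, the NMDA receptor gene Grin3a by 1.88, and the nicotinic receptor gene Chrna3 by 2.00 ± 0.28. Of 32 neuropeptide and related precursor genes, 4 rose and 3 fell. Sst, the precursor of somatostatin, read 6.06 and 6.43 on the mdDA arrays and 8.27 and 8.46 on the lateral arrays (difference -2.12 ± 0.15), and Pnoc and Pmch, precursors of nociceptin and of melanin-concentrating hormone, fell (differences -1.56 and -1.12). Adcyap1, the precursor of PACAP, rose by 0.93.

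**Figure D4:**
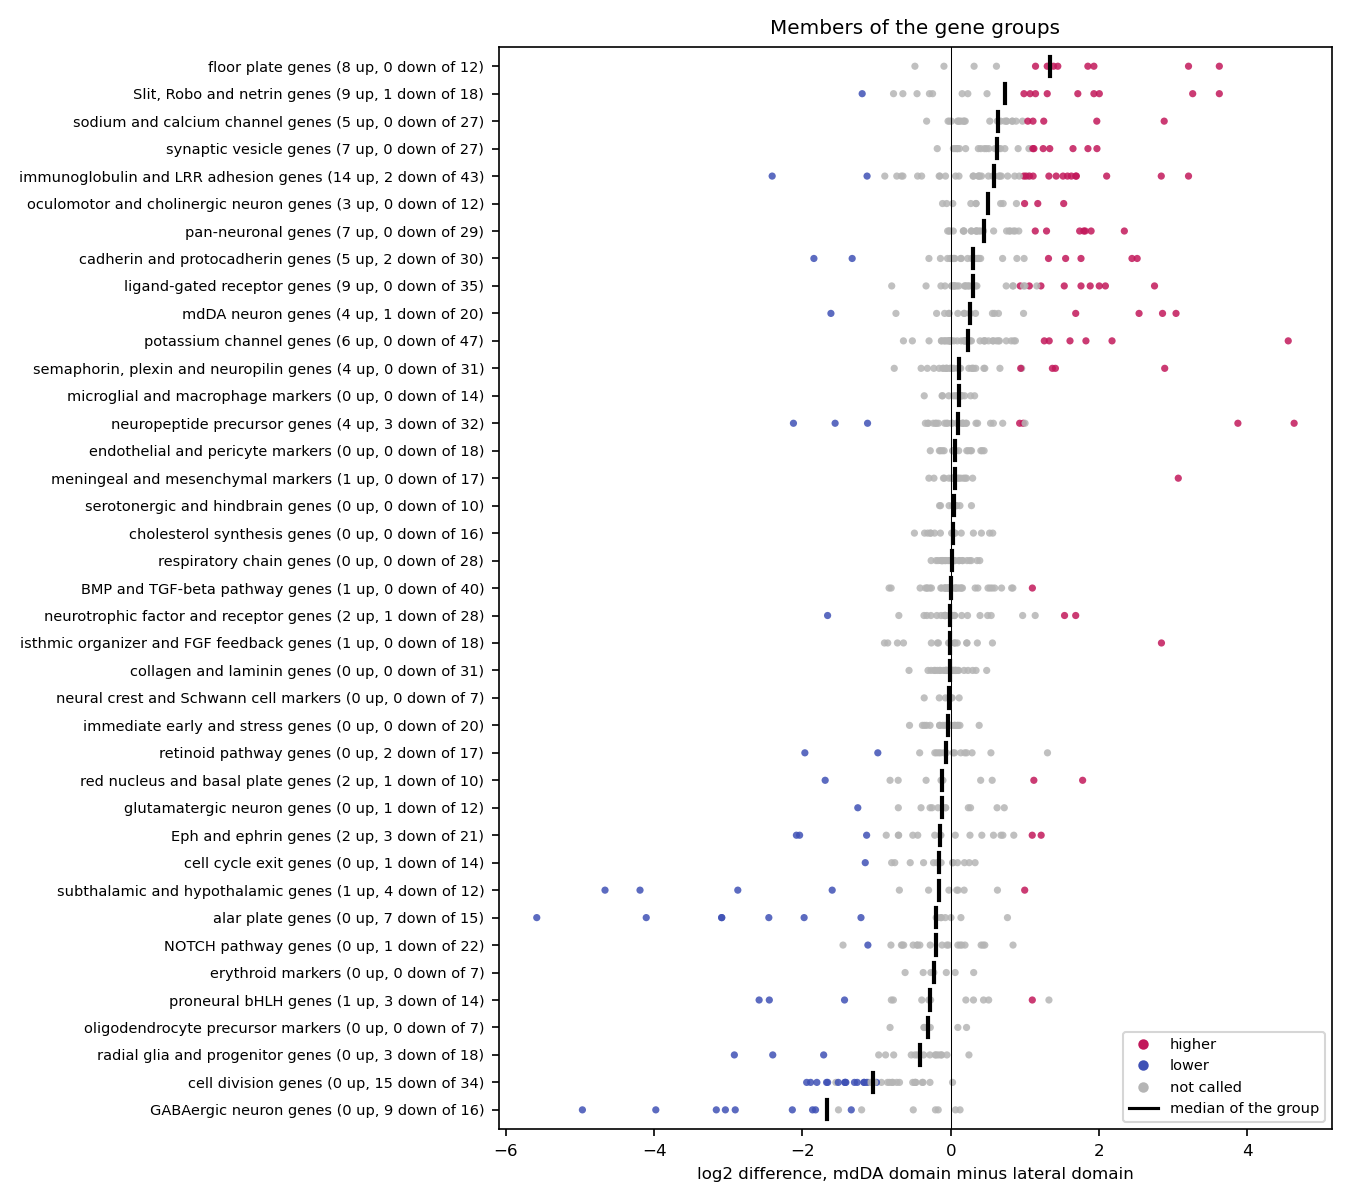
Log2 difference between the mdDA and the lateral domain (x axis) of each measured member of the 39 gene groups (rows, ordered by median), in red where called higher, blue where called lower and grey where not called, with the group's median as a black bar and its counts beside the name. Floor plate genes have the highest median (1.34) and GABAergic genes the lowest (-1.67), and the median over all 19864 genes is -0.01.

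Calls in other signalling pathways are set beside the 1.58% of all genes that were higher and the 1.04% that were lower. Of 40 BMP and TGF-beta genes, 1 was called (2.5%, near that background), the type I receptor gene Acvr1, at 6.10 and 6.08 on the mdDA arrays and 4.96 and 5.02 on the lateral arrays (difference 1.10 ± 0.15, adjusted p = 0.0734, limma). Of 18 genes of the isthmic organizer and of FGF feedback, 1 was called, Cnpy1, a regulator of FGF signalling, at 7.42 and 7.60 on the mdDA arrays and 4.84 and 4.50 on the lateral arrays (difference 2.84 ± 0.19). The retinoid-binding protein genes Crabp2 and Crabp1 fell (differences -1.97 ± 0.15 and -0.98 ± 0.15), as 2 of 17 retinoid genes (11.8%). The largest rise in the retinoid group was 1.305, in a gene that was not called. Without the replicate block 1 retinoid gene was called higher. Of 28 neurotrophic factor and receptor genes, 2 rose and 1 fell (7.14% and 3.57%). Gfra1 rose as above, Ntrk3, the receptor for neurotrophin-3, rose by 1.54 ± 0.16, and Ptn, a heparin-binding growth factor, fell by 1.66 ± 0.15. Ptn read 6.53 and 6.79 in the mdDA domain but 7.98 to 8.54 in the sorted neurons, on either side of the lateral arrays (8.24 and 8.40).

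Markers of other cell types that the fragments could hold were counted too. No member was called among 18 endothelial and pericyte, 14 microglial and macrophage, 7 erythroid, 7 neural crest and Schwann cell and 7 oligodendrocyte precursor genes, and their median differences lay between -0.31 and 0.11. At an unadjusted p below 0.05 in limma, these groups held 1, 0, 1, 0 and 1 genes, and without the replicate block 0 were called. Against a background of 1.58% higher and 1.04% lower, a count of 0 in lists this short does not set them apart from other genes. Of 17 meningeal and mesenchymal genes, Postn alone was called, and 13 of the 17 lay below the array medians in both domains. Globin RNA was found in both fragments, and the embryonic globin gene Hbb-y read 10.70 and 10.67 on the mdDA arrays and 10.28 and 10.47 on the lateral arrays against 3.76 to 3.97 in the sorted neurons. Averaged over the group, the erythroid level was 6.51 to 6.62 in the mdDA domain and 6.69 to 6.78 in the lateral domain. Nor was any member called among 20 immediate early and stress genes, 28 respiratory chain genes, 16 genes of cholesterol synthesis and 31 collagen and laminin genes, which held 1, 0, 3 and 1 genes at an unadjusted p below 0.05.

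At the threshold, the last genes called were Rrm1 (difference -1.002, adjusted p = 0.0997, limma), Rnf227 (1.07, 0.0998) and Nrg1 (0.98, 0.0999), and the first not called were Fbxl7 (0.96, 0.1), Gfra2 (0.97, 0.101) and DQ267102 (0.92, 0.101). A call therefore separates genes of nearly equal difference there. Of the rises, 72 had a lateral mean below the array medians, and of the falls, 77 had an mdDA mean below them. No detection call was used here, and where a level lies in the background the fold can understate the difference in RNA.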

How the data were processed

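Total RNA from laser-microdissected fragments was extracted with a kit for fixed tissue, amplified as cDNA and hybridized to Mouse Gene 1.0 ST arrays. The authors deposited log2 values, made by RMA with sketch-quantile normalization in Affymetrix Expression Console (version 1.2 in the submitters' processing notes). Quantile normalization assumes a similar distribution of levels on every array and so removes any overall difference in RNA content. Arrays have no read depth, and their number limits the precision.

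Of 35556 probe sets, 21789 had 1 gene symbol in the platform annotation, 1621 several and 12146 none, and 21698 of the single symbols matched RefSeq. Where a gene had several probe sets, that of highest mean level (all 8 arrays) stood for it. The 74 measured genes of the study's panels were left out after the fit. The domains were compared with limma 3.58.1 in R 4.3.3, with replicate number as a block and p-values adjusted by Benjamini-Hochberg across the whole table and a limit of 10% on the false discovery rate, following the study's paired test. The methods do not say what defines a pair, and deviations of same-numbered arrays did not correlate (-0.0147). The fit was tested on simulated data, where its share of false calls exceeded the nominal 10% under each of the spreads simulated.

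Named were the 20 largest rises and falls without overlap and up to 4 called members of each of 39 gene groups (with fewer than 2 called, the called member and those with the highest level, 2 in all). Other called members, Mir218-1, Mir218-2 and the neighbours of C130021I20Rik and Ttc6 were named after their values were seen. Members and lists were chosen with earlier results of these data known. Alternatives were no block, all 8 arrays, centring, repeated quantile normalization, a filter on low levels, probe sets with 1 symbol, trended and robust priors, other thresholds, another choice of probe set and leaving out each array. Tables and figures were made with Python 3.11.15, pandas 2.3.3 and matplotlib 3.10.9.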

Additional observations from a re-analysis of the deposited data

How the results depend on the processing

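The number of calls depended on the processing. Direction was compared for the named genes alone, and most settings left each difference as it was and so could not reverse it. Only centring, repeated quantile normalization, another choice of probe set and leaving out an array could change the differences themselves. At 541 probe sets higher and 390 lower (313 and 207 genes), the paired fit was among the stricter ones. No replicate block gave 829 and 605 probe sets (509 and 370 genes), a fit over all 8 arrays 770 and 544 (535 and 375), probe sets above the median level 822 and 574 (501 and 337), trended and robust priors 937 and 709 (527 and 355), and probe sets with 1 symbol 1342 and 1160 (1193 and 1021). A false discovery rate below 5% gave 130 and 97 (89 and 62). Leaving out an array gave 4 to 96 probe sets higher and 11 to 74 lower (2 to 65 and 10 to 41 genes). With 3 arrays the lone array of a domain was assumed to vary like the other 2, since no pair was left for it. Centring and repeated quantile normalization kept all 4 counts within 1.5 times. A minimum of 1.5-fold could change no gene count, since the calls began at differences of 0.92 and -0.92.

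Same-numbered arrays shared no visible pairing. Of the 520 genes called, 510 were also called without the replicate block, 445 after repeated quantile normalization, 476 with all 8 arrays and 12 without either mdDA array. Of the 102 named genes that were called, Slc5a7 lost its call without the block, and Postn, Klhl1, Bub1, Robo3, Plxnc1, Cacna1e and Crabp1 lost theirs after repeated quantile normalization (adjusted p from 0.101 to 0.107, limma). Dner gained a call with no block, all 8 arrays, the level filter, 1-symbol probe sets, and trended priors. Only genes near 0 changed sign, and only when an array was left out, with ranges of -0.15 to 0.34 for Olig1, -0.05 to 0.058 for Hspa8, -0.02 to 0.029 for Hsp90aa1, -0.088 to 0.112 for Hmgcs1, -0.055 to 0.114 for Bmpr2, -0.22 to 0.50 for Cx3cr1, -0.14 to 0.44 for Trem2, -0.19 to 0.24 for Hoxb1, -0.15 to 0.25 for Hoxb3, -0.021 to 0.07 for Ccnd2, -0.285 to 0.007 for Slc2a1 and -0.32 to 0.0815 for Cox6c. The cause of these changes was not tested.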

Other observations

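Groups of genes outside the lists, chosen after their values were seen, are given as values. Of 26 genes of core and linker histones, 0 were higher and 8 lower (1.58% and 1.04% over all genes). Their median difference was -0.78, with a range from -1.91 to -0.04. H1f5 read 6.88 and 7.31 on the mdDA arrays and 8.95 and 9.05 on the lateral arrays (difference -1.91 ± 0.17, adjusted p = 0.0453, limma), and H2ac4 and H1f1 fell too (differences -1.76 and -1.48). Both mdDA arrays lay below both lateral arrays for these 3 genes, as they did for 23.9% of all genes. Histone genes are near-identical copies that can share probes, so single members are uncertain.

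Single genes associated with cilia were called. Jhy read 6.85 and 7.07 on the mdDA arrays and 4.10 and 5.21 on the lateral arrays (difference 2.30 ± 0.26), Efcab1 rose by 1.39 and Dnah9, an axonemal dynein heavy chain, by 1.41. Dnah9 was 1 of 12 such dynein genes measured and the only one called. Foxj1, the master factor of motile cilia, was not called, at 4.30 and 4.36 on the mdDA arrays and 4.33 and 4.15 on the lateral arrays.

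Of imprinted genes, which were not counted as a group, Zdbf2 read 7.53 and 7.35 on the mdDA arrays and 5.76 and 5.51 on the lateral arrays (difference 1.81 ± 0.15, adjusted p = 0.0445, limma) and Rian, a non-coding RNA of the Dlk1-Dio3 region, rose by 1.52 ± 0.15. Plagl1, a zinc finger gene, read 6.25 and 6.00 on the mdDA arrays and 8.60 and 8.55 on the lateral arrays, a difference of -2.45 ± 0.15 (adjusted p = 0.0326). Meg3 and Peg3 differed by 0.80 and 0.74 and were not called.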
